A study of Mus musculus with 16 samples.

Results

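The BCL2 family genes described here are 10 mouse genes chosen by name, 7 that encode BH3-only proteins (Bbc3, Bmf, Bcl2l11, Pmaip1, Bad, Bid and Bik) and 3 that encode anti-apoptotic proteins (Bcl2, Bcl2l1 and Mcl1), out of 49585 genes with a value in each library. Poly(A) RNA was sequenced from CD45+ cells, cells that carry the surface marker shared by leukocytes, taken from bone marrow or spleen. The mice were C57BL/6J and 12 weeks old. Dbh-Cre mice, whose Cre recombinase follows the gene of an enzyme of noradrenaline synthesis, received a Cre-dependent adeno-associated virus on both sides of the ventrolateral medulla (VLM), a brainstem region. The virus carried either hM3Dq, a receptor engineered to answer clozapine N-oxide (CNO), fused to mCherry, or mCherry alone as the control. All mice of both virus groups received CNO, and cells were taken 4 h later, so every comparison is between CNO-treated mice. Each of the 4 groups (bone marrow or spleen, hM3Dq or mCherry) had 4 libraries, numbered 5 to 8 for hM3Dq and 1 to 4 for mCherry. The series text calls them biological replicates, but nothing ties a number to a single mouse, and no number occurs under both viruses, so anything that follows the numbers cannot be told apart from the virus. The question was what activity of these neurons does to transcripts of the death and survival machinery in marrow and spleen leukocytes.

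BCL2 family proteins set whether the outer membrane of the mitochondrion is opened, the step that commits many blood cells to apoptosis. The anti-apoptotic members hold the pore-forming proteins BAX and BAK in check, and the BH3-only proteins, which share with the rest of the family only the short BH3 helix, bind and neutralise them or engage BAX and BAK directly. Lymphocytes are known for depending on the balance of these proteins: BIM and PUMA are needed for the death of lymphocytes deprived of cytokines or exposed to glucocorticoids in mice, and MCL1 is needed for the survival of lymphocytes, neutrophils and stem cells.

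The depth per library, recovered from the values, was 11.34 to 16.96 times 1000000 assigned fragments. Ptprc, the gene of CD45, was present in all 16 libraries at 27.8 to 93.5 FPKM (fragments per kilobase of exon and per 1000000 assigned fragments), and haemoglobin genes took 0.133 to 2.84% of reads, so red-cell RNA was present in cells labelled CD45+. The summed level of 6 stromal and endothelial genes was 10.2 to 36.8 FPKM. The haemoglobin share was low in hM3Dq replicates 5 (0.564%) and 6 (0.391%) of bone marrow and in hM3Dq replicate 6 (0.133%) and mCherry replicate 2 (0.569%) of spleen, against 1.17 to 2.84% in the other 12 libraries, and results are given below without these libraries where that matters. In these bulk samples fewer cells of a type and less RNA per cell cannot be told apart.

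FPKM is a level per length, so levels of different genes can be set side by side. Mcl1 was the most abundant of the 10 transcripts in every group, at 122 ± 9.88 FPKM in bone marrow mCherry, 163 ± 20.9 in bone marrow hM3Dq, 184 ± 9.66 in spleen mCherry and 164 ± 10.6 in spleen hM3Dq libraries (SD, n = 4 each). Its ranges did not meet those of the second gene in any group. That second gene was Bcl2l1, which encodes BCL-XL, in bone marrow (22.4 FPKM in mCherry and 18.7 in hM3Dq libraries) and Bcl2 in spleen (13.5 and 20.7 FPKM). Bik, a BH3-only gene, was the lowest in every group, with group means of 0.227 to 0.460 FPKM from 0 to 12 recovered reads per library. It was at 0 in bone marrow hM3Dq replicate 7, and it did not reach the minimum for testing in any comparison. The other 9 genes had 71 reads or more in each library and were tested.

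**Figure D1:**
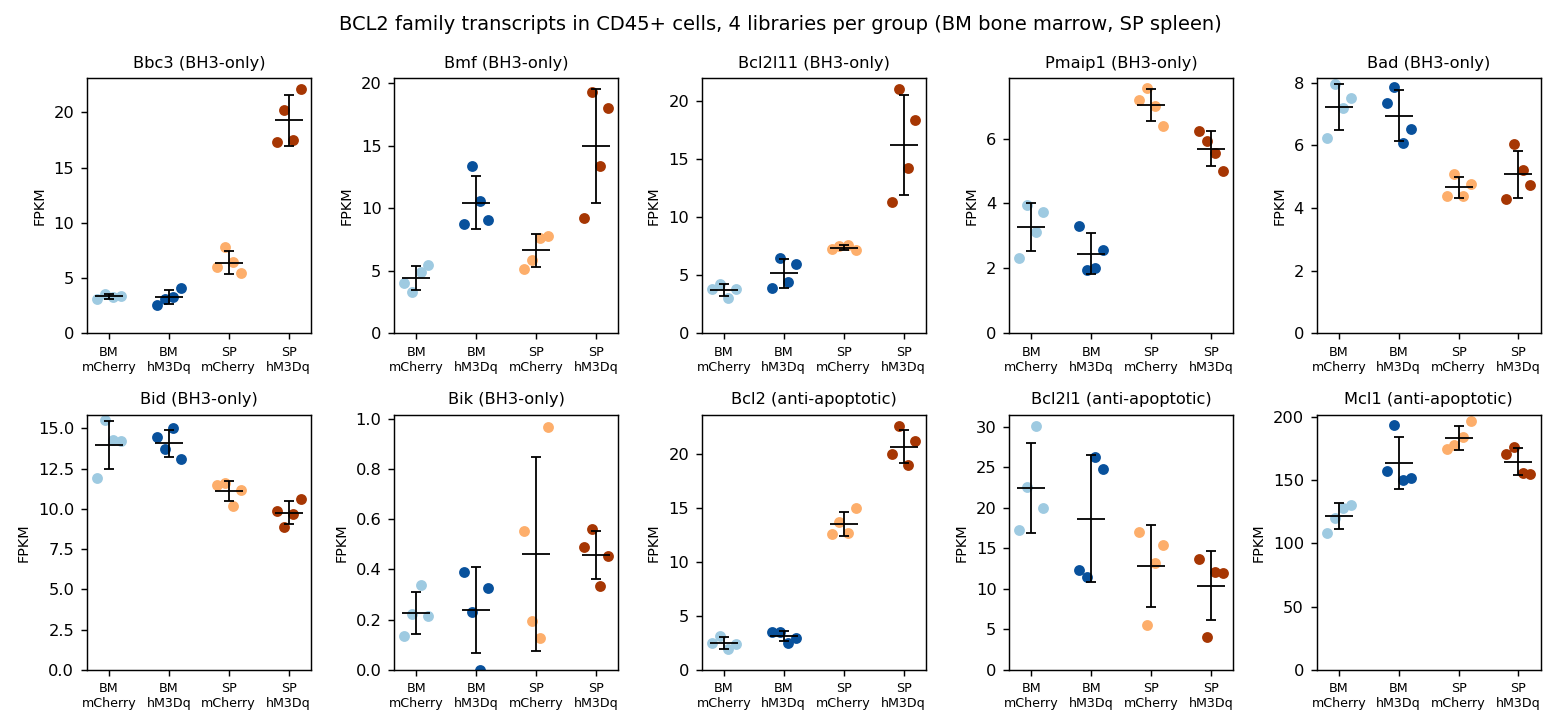
FPKM of the 10 BCL2 family genes (y axis, linear from 0) in each of the 16 libraries, grouped by tissue and virus on the x axis. Points are libraries in order of replicate number, and black bars give the mean and SD of 4. The 4 spleen hM3Dq libraries stood above all spleen mCherry libraries for Bbc3, Bmf, Bcl2l11 and Bcl2, and the bone marrow hM3Dq libraries above their controls for Bmf and Mcl1.

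In spleen, transcripts of the BH3-only genes Bbc3, Bmf and Bcl2l11 were about 2 to 3 times as high in hM3Dq as in mCherry libraries, and those of the anti-apoptotic gene Bcl2 were 1.50-fold higher. Of the 9 members tested, 4 rose and 0 fell, where 8.05% of the 17076 genes tested were called (3.48% higher, 4.57% lower; limma, adjusted p below 0.05). The FPKM ranges of the 4 members that rose lay above those of the controls, as they did for 9.35% of all genes. At an unadjusted p below 0.05 there were 4 higher and 3 lower, and limma-voom, another weighting of the same reads, also called 4 higher and 0 lower. The median log2 change of the 9 members was 0.08, against -0.02 over all genes tested.

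Bbc3 encodes PUMA, a BH3-only protein that binds all the anti-apoptotic members and is a textbook target of p53 and of FOXO3. In spleen it stood at 17.3, 20.2, 17.5 and 22.1 FPKM in hM3Dq replicates 5 to 8 and at 5.96, 7.79, 6.41 and 5.40 FPKM in mCherry replicates 1 to 4. The lowest hM3Dq library was more than 2 times the highest mCherry library. The log2 change was 1.55 ± 0.13 (SE), a 2.92-fold difference (adjusted p = 0.00129), the 16th smallest p of all genes tested in spleen. It was called in all 17 other fits, with log2 changes of 1.42 to 1.66.

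Bcl2l11 encodes BIM, the BH3-only protein that is most needed for the removal of lymphocytes after a response. It stood at 11.3, 21.0, 14.2 and 18.3 FPKM in spleen hM3Dq replicates 5 to 8 and at 7.22, 7.46, 7.61 and 7.10 FPKM in the mCherry libraries. The control libraries were close together and all below the lowest hM3Dq library, while the hM3Dq libraries spread from replicate 5, the lowest, to replicate 6, the highest. The log2 change was 1.06 ± 0.16, or 2.08-fold (adjusted p = 0.00939), and it too was called in all 17 other fits.

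Bmf encodes a BH3-only protein that is tied to the cytoskeleton through a dynein light chain. In spleen it stood at 9.23, 19.3, 13.4 and 18.0 FPKM in hM3Dq replicates 5 to 8 and at 5.16, 5.83, 7.65 and 7.80 FPKM in mCherry replicates 1 to 4. Replicate 5 was again the lowest hM3Dq library and lay close to the highest control. The log2 change was 1.10 ± 0.23, or 2.14-fold (adjusted p = 0.0247), but this call depended on single libraries. It was lost without hM3Dq replicate 6 (adjusted p = 0.0548), 7 (0.0544) or 8 (0.0730) and without mCherry replicate 1 (0.0698) or 2 (0.0605), while the log2 change stayed at 0.98 to 1.30 over all fits that left out 1 library. Without both libraries of low haemoglobin share it was 0.94 (adjusted p = 0.0856).

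Bcl2, the founding anti-apoptotic gene and a survival factor of naive and memory lymphocytes, rose in the same libraries. It stood at 20.0, 22.6, 19.0 and 21.2 FPKM in spleen hM3Dq replicates 5 to 8 and at 12.6, 13.7, 12.7 and 15.0 FPKM in the mCherry libraries, with no overlap. The log2 change was 0.58 ± 0.07 (1.50-fold, adjusted p = 0.00535), and it was called in all 17 other fits at 0.54 to 0.62.

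The other 5 members tested in spleen were not called. Pmaip1, the gene of NOXA, a BH3-only partner of MCL1, was at 6.25, 5.93, 5.56 and 4.99 FPKM in hM3Dq and 7.20, 7.57, 7.02 and 6.38 FPKM in mCherry libraries. Its hM3Dq libraries were all below its mCherry libraries, as were those of 8.92% of all genes tested, and its log2 change was -0.34 ± 0.10 (adjusted p = 0.0697, and 0.0411 without hM3Dq replicate 5). Mcl1 was at 171, 176, 156 and 155 FPKM against 175, 178, 184 and 197 (log2 change -0.19 ± 0.07, adjusted p = 0.110), with ranges that met. Bid, cut by caspase 8 to carry the death receptor signal to mitochondria, was at 9.76 ± 0.686 against 11.1 ± 0.598 FPKM (log2 change -0.22, 95% interval -0.42 to -0.02, adjusted p = 0.154). Bad, whose protein is held inactive by phosphorylation downstream of growth factors, was at 5.07 ± 0.761 against 4.66 ± 0.348 FPKM (log2 change 0.08, interval -0.16 to 0.32).

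Markers of cell types moved in spleen as well. Of 10 mature B cell genes 5 fell and 0 rose in hM3Dq libraries, with a summed level of 1294 to 1469.8 FPKM against 1530.0 to 1899.8 in mCherry libraries. Ptprc fell too (log2 change -0.34, from 86.9 to 93.5 FPKM in mCherry to 66.2 to 81.5 FPKM in hM3Dq libraries). None of 10 T cell genes was called by limma or limma-voom (2 higher and 1 lower at an unadjusted p below 0.05), and their summed level was 569 to 610.5 FPKM in hM3Dq and 525 to 783 FPKM in mCherry libraries. Of 12 neutrophil genes 0 were called by limma, with 1 higher by limma-voom, 1 higher at an unadjusted p below 0.05 and summed levels of 2323 to 5464 FPKM against 1790.2 to 4185. Single genes of other lists were called: Klrb1c of 7 natural killer cell genes rose (log2 change 0.58), as did Flt3 of 5 dendritic cell genes (0.99) and Prdm1 of 6 plasma cell genes (0.52). These do not stand for their lists. The log2 change was above 0 for 2 natural killer cell genes and below 0 for 5. For dendritic cell genes the split was 1 above and 4 below (2 lower at an unadjusted p below 0.05), and for plasma cell genes 4 above and 2 below. Of 8 monocyte and macrophage genes Vcam1 rose (0.89) and Ccr2 fell (-0.99), with 1 of the 8 above 0 and 7 below. All 9 erythroid genes stood lower in mean in hM3Dq libraries (median log2 change -0.72), with 0 called by limma or limma-voom, 0 at an unadjusted p below 0.05, and summed levels of 1812 to 18257 FPKM against 7740.3 to 23164. The part of these markers in the changes of Bbc3, Bmf, Bcl2l11 and Bcl2 was not tested.

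The start regions of the 4 genes that rose in spleen are printed here because the genes rose in the same libraries. The sequences are RefSeq windows (GRCm38.p6) of 250 bases before to 50 bases after a start, 5′ to 3′ on the gene's strand. Capitals mark GTAAACA, the core motif of FOXO factors, or its reverse complement. For Bbc3 and Bmf, which have 3 windows each, and Bcl2l11, which has 2, a single window is shown: the window with the motif for Bbc3 and Bcl2l11, and the most upstream one for Bmf.
Bbc3, chr7:16310011-16310310, plus strand: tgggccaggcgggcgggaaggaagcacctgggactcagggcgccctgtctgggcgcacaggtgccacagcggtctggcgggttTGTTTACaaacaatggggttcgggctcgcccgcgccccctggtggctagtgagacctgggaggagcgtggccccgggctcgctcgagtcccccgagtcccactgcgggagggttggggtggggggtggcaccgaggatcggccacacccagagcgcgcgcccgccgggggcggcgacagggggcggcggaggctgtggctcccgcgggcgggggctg
Bcl2l11, chr2:128125788-128126087, plus strand: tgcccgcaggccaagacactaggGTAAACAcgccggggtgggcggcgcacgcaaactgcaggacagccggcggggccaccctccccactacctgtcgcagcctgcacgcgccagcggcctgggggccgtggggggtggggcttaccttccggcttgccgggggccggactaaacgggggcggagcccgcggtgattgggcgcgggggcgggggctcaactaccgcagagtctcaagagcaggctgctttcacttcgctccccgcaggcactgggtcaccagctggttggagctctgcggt
Bmf, chr2:118549637-118549936, minus strand: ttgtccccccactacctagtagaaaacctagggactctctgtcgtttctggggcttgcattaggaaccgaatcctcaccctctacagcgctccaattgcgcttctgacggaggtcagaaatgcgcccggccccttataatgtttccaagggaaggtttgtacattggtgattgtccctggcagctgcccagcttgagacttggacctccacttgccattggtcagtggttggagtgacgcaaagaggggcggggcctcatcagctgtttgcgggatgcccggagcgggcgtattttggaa
Bcl2, chr1:106714241-106714540, minus strand: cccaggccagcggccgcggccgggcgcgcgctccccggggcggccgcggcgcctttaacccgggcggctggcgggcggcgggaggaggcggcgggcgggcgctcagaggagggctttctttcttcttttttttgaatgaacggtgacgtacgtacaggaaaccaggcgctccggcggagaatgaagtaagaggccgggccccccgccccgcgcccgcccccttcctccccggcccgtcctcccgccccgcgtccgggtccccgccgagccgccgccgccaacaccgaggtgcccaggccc

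In these windows GTAAACA lies 227 bases before the start of Bcl2l11, and its reverse complement begins 167 bases before a start of Bbc3. Of 16 windows that RefSeq gives for 8 of the 10 members, these 2 held the motif on either strand, and 3.65% of all 32851 RefSeq windows did. The glucocorticoid receptor motif, GNACA and TGTNC with 3 bases of any kind between them and searched on both strands, was in 0 of the 16 windows and in 0.475% of all windows. The E-box CACGTG was in 1 window of Bbc3, which overlaps the window shown, and in 7.15% of all windows, and the cAMP response element TGACGTCA was in 0 of the 16 and in 1.79% of all. The windows of Bbc3, Bcl2l11 and Bcl2 were rich in G and C, at 71.0 to 78.0%, against a median of 52.7% over all windows, and those of Bmf held 53.3 to 58.7%. A motif match is a description of letters and was not tested as a site of binding.

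In bone marrow, Bmf was the single member called, and transcripts of Bbc3, which had risen most in spleen, stood at nearly the same level under both viruses. Of the 9 members tested, 1 rose and 0 fell, where 4.73% of 16095 genes were called (3.04% higher and 1.70% lower). No member had its hM3Dq range below its mCherry range, as 3.81% of all genes did. At an unadjusted p below 0.05 there were 2 higher and 1 lower, and limma-voom called 2 higher and 0 lower. Without composition scaling the genes called split into 640 higher and 158 lower in place of 489 and 273. The median log2 change of the 9 members was -0.06, against -0.01 over all genes tested.

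Bmf stood at 8.76, 13.4, 10.6 and 9.05 FPKM in bone marrow hM3Dq replicates 5 to 8 and at 4.02, 3.31, 4.87 and 5.47 FPKM in mCherry replicates 1 to 4. Every hM3Dq library lay above every mCherry library, the nearest pair being 8.76 and 5.47 FPKM. The log2 change was 1.15 ± 0.19, or 2.22-fold (adjusted p = 0.0141). All 17 other fits called it, with adjusted p up to 0.0470 and, without hM3Dq replicates 5 and 6, a log2 change of 1.12.

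Mcl1 stood at 157, 194, 150.3 and 152 FPKM in bone marrow hM3Dq libraries and at 108, 119.9, 128 and 130.3 FPKM in mCherry libraries. The groups did not overlap, which held with hM3Dq above mCherry for 12.2% of all genes tested, and replicate 6 stood apart from the other 3 hM3Dq libraries. The log2 change of 0.34 ± 0.10 (1.27-fold) did not pass the adjustment (adjusted p = 0.0735). It was called when all 16 libraries shared 1 estimate of the spread (0.0151) and by limma-voom (0.0479), and not in the other 15 fits.

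The remaining members were not called in bone marrow. Bcl2l11 was at 3.87, 6.49, 4.36 and 5.91 FPKM in hM3Dq and 3.82, 4.20, 2.99 and 3.83 FPKM in mCherry libraries, a log2 change of 0.37 ± 0.18 (95% interval -0.03 to 0.77, adjusted p = 0.243). Replicates 6, 7 and 8 lay above all controls, and replicate 5 lay among them. Bbc3 was at 2.53, 3.06, 3.29 and 4.05 against 3.08, 3.58, 3.26 and 3.37 FPKM, a log2 change of -0.13 with an interval of -0.47 to 0.21. Its sign turned when hM3Dq replicates 5 and 6 were left out (0.099). Pmaip1 was at 3.29, 1.94, 2.02 and 2.55 against 2.31, 3.96, 3.13 and 3.72 FPKM, with a log2 change of -0.49 ± 0.19 (adjusted p = 0.167).

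Bcl2 was at 3.11 ± 0.484 against 2.49 ± 0.518 FPKM in bone marrow (log2 change 0.25, interval -0.11 to 0.60). Bad (log2 change -0.13, interval -0.35 to 0.08) and Bid (-0.06, interval -0.27 to 0.14) had narrow intervals around no change. The sign of the Bid value turned without composition scaling (0.014). Erythroid genes stood lower in the bone marrow hM3Dq libraries for all 9 genes of their list, with 0 called by limma or limma-voom, 2 lower at an unadjusted p below 0.05, and summed levels of 5374 to 32612 FPKM against 18642 to 38886. The 8 monocyte and macrophage genes summed to 2756 to 4205 FPKM in hM3Dq and 4259.9 to 5267 FPKM in mCherry libraries, without overlap. Limma called 0 of the 8, with 1 lower by limma-voom and 4 lower at an unadjusted p below 0.05. By limma 2 of 6 plasma cell genes and 1 of 3 dendritic cell genes tested rose, with 0 lower. Of 10 mature B cell genes 1 fell by limma and 2 by limma-voom, with 0 higher by either. The log2 change was above 0 for 5 plasma cell, 1 dendritic cell and 7 mature B cell genes, and below 0 for 1, 2 and 3. Without the libraries of low haemoglobin share the log2 change of Bmf was 1.12, against 1.15 with all libraries. That of Mcl1 was 0.28, against 0.34. The part of these markers in the values of Bmf and Mcl1 was not tested.

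**Figure D2:**
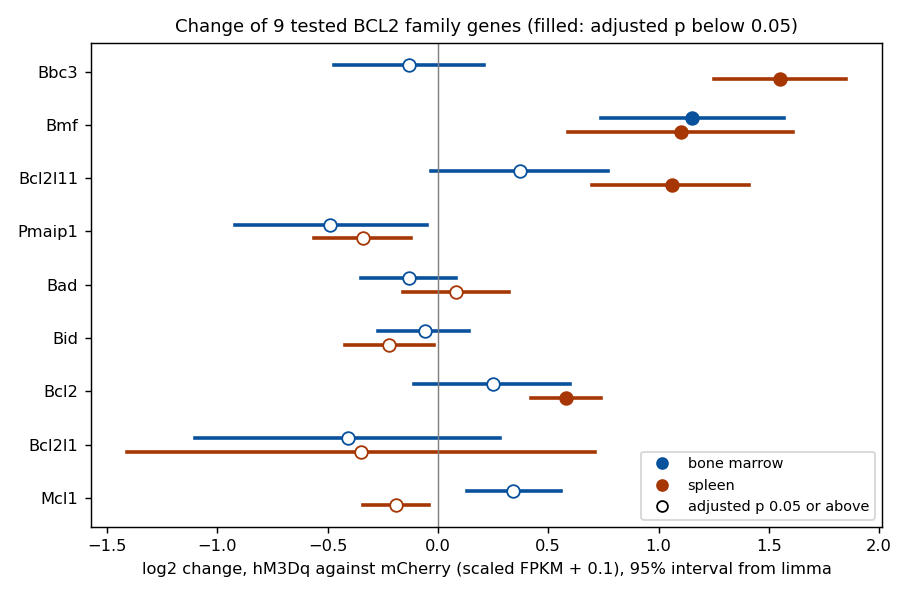
Log2 change of the 9 tested BCL2 family genes in hM3Dq against mCherry libraries (x axis, scaled FPKM plus 0.1) with 95% intervals from limma, in bone marrow (blue) and spleen (brown), 4 libraries per group. Filled points passed an adjusted p of 0.05. Bmf lay near 1.1 in both tissues, while Bbc3 was at 1.55 in spleen and -0.13 in bone marrow.

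The effect of the virus on Bbc3 differed between the tissues. The interaction, the bone marrow log2 change minus the spleen log2 change over all 16 libraries, was -1.68 ± 0.21 (95% interval -2.12 to -1.24, adjusted p = 0.00425), the 3rd smallest p of 17987 genes. It was called in all 23 other fits, at -1.80 to -1.52. Of the 9 members 1 was lower and 0 were higher in this test, where 0.0612% of all genes were called lower and 0.0389% higher (11 and 7 genes, or 5 and 6 without composition scaling). At an unadjusted p below 0.05 there were 2 lower and 1 higher, and limma-voom called 1 lower and 0 higher.

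For the other members a difference between tissues was not shown. Mcl1 moved up in marrow and down in spleen in mean, with an interaction of 0.54 ± 0.11 that missed the threshold (adjusted p = 0.0923, and 0.0528 to 0.194 in the other fits). Bcl2l11 had an interaction of -0.69 ± 0.25 (adjusted p = 0.405) and Bcl2 of -0.33 ± 0.17 (0.608). For Bmf it was 0.05 with an interval of -0.61 to 0.72. Its sign turned in 5 of the 16 fits that left out 1 library.

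Within the spleen hM3Dq group the 3 BH3-only genes that rose were ordered alike. Replicate 5 was lowest and replicate 7 second lowest for Bmf, Bcl2l11 and Bbc3, with replicate 6 highest for Bmf and Bcl2l11 and replicate 8 highest for Bbc3. In bone marrow hM3Dq libraries, replicate 6 was highest for Bmf, Bcl2l11, Bcl2 and Mcl1. For Fkbp5, a glucocorticoid-induced gene, replicate 5 was also the lowest spleen hM3Dq library (48.4 against 59.0 to 63.1 FPKM) and replicate 6 the highest bone marrow one (60.4 against 50.1 to 55.1 FPKM). The rest of its order differed in part. Its lowest bone marrow hM3Dq library was replicate 8, where that of Bmf and Bcl2l11 was replicate 5. Its highest spleen hM3Dq library was replicate 8, as for Bbc3. These are orders of 4 libraries by FPKM before scaling and carry no test. Spleen hM3Dq replicate 6 had the highest scaling factor of all libraries, 1.18, and a haemoglobin share of 0.133%. Its Bmf level, 19.3 FPKM, was near that of replicate 8, 18.0 FPKM, and their order may turn with scaling.

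Ratios within a library do not depend on scaling between libraries. The FPKM ratio of Bbc3 to Bcl2 in spleen was 0.931 ± 0.0803 in hM3Dq and 0.477 ± 0.0873 in mCherry libraries, with no overlap (0.861 to 1.04 against 0.361 to 0.570). For Bcl2l11 to Bcl2 in spleen the ranges met, at 0.565 to 0.928 in hM3Dq and 0.474 to 0.598 in mCherry libraries. For Bmf to Bcl2 in spleen they met too, at 0.461 to 0.855 against 0.411 to 0.601. The ratio of Bcl2l11 to Mcl1 in spleen was 0.0987 ± 0.0252 against 0.0401 ± 0.00271, and the lowest hM3Dq library (0.0662) lay above the highest mCherry library (0.0419). In bone marrow the same ratio was 0.0315 ± 0.00615 against 0.0308 ± 0.00563. The ratio of Mcl1 to Bcl2 in spleen was 7.97 ± 0.535 in hM3Dq against 13.6 ± 0.680 in mCherry libraries. In bone marrow the ratio of Bbc3 to Bcl2 was lower in mean in hM3Dq than in mCherry libraries, 1.07 ± 0.317 against 1.37 ± 0.260, with ranges that met, and that of Mcl1 to Bcl2 ranged from 45.3 to 60.6 against 38.1 to 67.8. The 7 BH3-only genes together summed to 71.4 ± 10.9 FPKM in spleen hM3Dq and 43.6 ± 1.46 FPKM in spleen mCherry libraries, and to 42.6 ± 2.75 and 36.2 ± 3.30 FPKM in bone marrow (SD, n = 4 each). The ranges did not overlap in either tissue (58.8 to 81.9 against 41.9 to 45.5 FPKM in spleen, 40.7 to 46.6 against 31.5 to 38.7 FPKM in bone marrow). The 3 anti-apoptotic genes, most of whose sum is Mcl1, summed to 185 ± 16.4 FPKM in bone marrow hM3Dq and 147 ± 13.7 FPKM in bone marrow mCherry libraries, without overlap, and to 196 ± 9.41 and 209.8 ± 12.7 FPKM in spleen, where the ranges met. Of all single genes tested, 12.2% in bone marrow and 9.35% in spleen had hM3Dq ranges above the mCherry ranges. Unlike the ratios, the sums are of unscaled FPKM and depend on scaling between libraries. These ratios and sums are descriptions without a test.

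Bcl2l1 levels ran with the haemoglobin share of the libraries in both tissues. BCL-XL is the anti-apoptotic protein that maturing red cells and platelets depend on. The gene stood at 12.3, 11.4, 26.2 and 24.7 FPKM in bone marrow hM3Dq replicates 5 to 8, whose haemoglobin genes took 0.564, 0.391, 2.27 and 2.38% of reads, and at 17.2, 22.6, 30.1 and 19.9 FPKM in mCherry replicates 1 to 4, with 1.34, 2.20, 2.84 and 1.67% of reads. In spleen it was at 13.6, 4.04, 12.0 and 11.9 FPKM in hM3Dq and 17.0, 5.53, 13.2 and 15.4 FPKM in mCherry libraries, and the libraries with 4.04 and 5.53 FPKM were those with the lowest haemoglobin shares of that tissue.

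Over the 8 bone marrow libraries Pearson's r between Bcl2l1 and the haemoglobin share was 0.987 (exact permutation p = 7.44e-05, adjusted over 18 relations 0.00134) and Spearman's rho 0.976 (exact p = 3.97e-04). Over the 8 spleen libraries r was 0.971 (exact permutation p = 5.21e-04, adjusted 0.00469) and rho 0.833 (exact p = 0.0154). Without the 2 libraries farthest from the median share, r was 0.973 in bone marrow and 0.854 in spleen (exact p = 0.00278 and 0.0292, n = 6). The 18 relations were 9 genes in each of 2 tissues, and none of the 16 that did not involve Bcl2l1 passed the adjustment (lowest adjusted p 0.0744, for Bad in spleen). Without the same 2 spleen libraries r was 0.916 for Bid (exact permutation p = 0.00139, n = 6, not adjusted), against 0.485 over all 8 (exact p = 0.227).

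The virus effect on Bcl2l1 was not called, with a log2 change of -0.41 ± 0.31 in bone marrow (interval -1.10 to 0.28) and -0.35 ± 0.47 in spleen (interval -1.41 to 0.71). Fitted with the haemoglobin share as a further term, they were -0.047 ± 0.09 (adjusted p = 0.783) and 0.068 ± 0.11 (0.754). Without both low-share libraries of a tissue they were 0.18 and -0.27. The error of the virus effect in either tissue was thus 3 times or more as large without the covariate as with it.

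**Figure D3:**
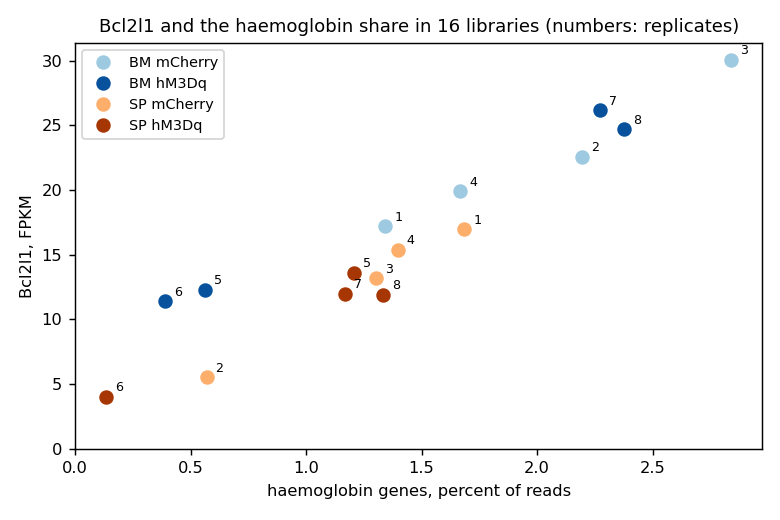
Bcl2l1 in FPKM (y axis) against the share of reads from the haemoglobin genes Hba-a1, Hba-a2, Hbb-bs and Hbb-bt in percent (x axis) for the 16 libraries, coloured by group and numbered by replicate. Within each tissue the points rise together, from 11.4 to 30.1 FPKM in bone marrow and from 4.04 to 17.0 FPKM in spleen.

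In the control mice most BCL2 family transcripts differed in level between the 2 tissues. Of the 9 members tested between bone marrow and spleen mCherry libraries, 3 were higher and 5 lower in bone marrow, in a comparison where 69.3% of 16943 genes were called (35.3% higher, 34.0% lower), so the share of members called is near the background. All 8 called members had FPKM ranges that did not overlap between the tissues, as did 66.1% of all genes (22.0% higher and 44.1% lower in bone marrow). Without composition scaling the genes called were 4083 higher and 7977 lower in place of 5988 and 5758, and the median of all genes was -0.27 in place of 0. The members kept their calls under both scalings, other than Bmf, which was called lower only without scaling (-0.57).

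Bcl2 had the widest tissue difference among the members. It was at 2.50, 3.15, 1.89 and 2.41 FPKM in bone marrow mCherry libraries and 12.6 to 15.0 FPKM in spleen, a log2 difference of -2.13 ± 0.13 (adjusted p = 1.34e-06). Pmaip1 (-0.83 ± 0.15), Bcl2l11 (-0.70 ± 0.11), Bbc3 (-0.63 ± 0.12) and Mcl1 (-0.31 ± 0.07) were also lower in bone marrow. Bcl2l1 (1.18 ± 0.33), Bad (0.90 ± 0.09) and Bid (0.61 ± 0.08) were higher there, and Bmf was not called (-0.29 ± 0.19, adjusted p = 0.193). Bone marrow libraries also held far more neutrophil RNA (12 of 12 marker genes higher) and less mature B and T cell RNA (10 of 10 and 10 of 10 marker genes lower). Of 9 erythroid genes 7 were called higher in bone marrow and 0 lower (median log2 difference 1.14). The part of these cell types was not tested. The bone marrow and spleen libraries were compared as unpaired.

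Among the effectors and the rest of the family limma called a single gene in spleen and none in bone marrow, and limma-voom called 2 and 0. Bax, which forms the pore, was at 26.6 FPKM in spleen hM3Dq and 26.5 FPKM in mCherry libraries (log2 change -0.03, interval -0.25 to 0.19) and at 16.6 and 16.9 FPKM in bone marrow (-0.10, interval -0.40 to 0.19). Its sign turned in some fits. Bak1, the other pore former, had log2 changes of -0.29 ± 0.10 in spleen and -0.21 ± 0.08 in bone marrow, with adjusted p of 0.115 and 0.139. Limma and limma-voom called neither gene in either tissue, and 1 of the 2 was lower at an unadjusted p below 0.05 in each tissue. Bok did not reach the minimum for testing.

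Of 4 further anti-apoptotic genes tested, Bcl2a1a fell in spleen, from 15.7 to 8.63 FPKM (log2 change -0.88 ± 0.17, adjusted p = 0.0211), and the call ended without hM3Dq replicate 8 or mCherry replicates 1 or 4. Its copy Bcl2a1b was called lower by limma-voom (-0.60, adjusted p = 0.0458) but not by limma (-0.58, adjusted p = 0.0711), and Bcl2a1d (0.25 ± 0.43 by limma) was called by neither. Bcl2l2, the gene of BCL-W, was at 1.86 to 2.03 FPKM in hM3Dq and 2.30 to 2.98 FPKM in mCherry spleen libraries, without overlap, and neither limma (-0.36, adjusted p = 0.0694) nor limma-voom (-0.38, adjusted p = 0.0553) called it. At an unadjusted p below 0.05, 3 of the 4 were lower and 0 higher in spleen. The A1 genes are near-identical copies of each other, so the split of reads between them is uncertain. In bone marrow none of the 4 was called by limma or limma-voom, with 1 lower at an unadjusted p below 0.05. The 6 other BCL2-like genes tested in spleen, and 5 in bone marrow, gave 0 calls by either tool and 1 higher at an unadjusted p below 0.05 in each tissue.

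Downstream of the mitochondrion, 1 of 17 genes of the apoptosome, the caspases and their inhibitors rose in each tissue and 0 fell by limma. At an unadjusted p below 0.05 there were 2 higher and 3 lower in bone marrow and 4 higher and 1 lower in spleen, and limma-voom called 1 lower in bone marrow and 0 in spleen. The gene that rose was in both cases Birc3, which encodes cIAP2, a ubiquitin ligase that restrains death signalling from TNF receptors. It was at 23.0, 33.1, 23.0 and 22.9 FPKM in bone marrow hM3Dq against 11.7, 11.6, 12.2 and 13.5 FPKM in mCherry libraries (log2 change 0.96 ± 0.12, adjusted p = 0.00593). In spleen it was at 40.6, 60.9, 44.1 and 45.3 against 29.7, 31.6, 32.2 and 33.4 FPKM (0.54 ± 0.10, adjusted p = 0.0183), a call that ended without hM3Dq replicate 8 or mCherry replicate 1. Replicate 6 was the highest library in both tissues. Among 9 death receptor genes 0 were called by either tool in either tissue, with 1 lower in bone marrow and 1 higher and 2 lower in spleen at an unadjusted p below 0.05.

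Of 14 genes of p53 and its targets, 11 were tested in each tissue, 10 of them in both, with Perp tested in bone marrow alone and Phlda3 in spleen alone. Of these, Trp53inp1, a stress-induced gene of autophagy and death, rose in both tissues and Sesn1, which encodes the stress protein sestrin 1, in spleen. Trp53inp1 rose from 28.8 to 57.5 FPKM in bone marrow (log2 change 0.91 ± 0.08, adjusted p = 8.86e-04) and from 33.4 to 59.4 FPKM in spleen (0.79 ± 0.14, adjusted p = 0.0167). Sesn1 stood at 58.0, 95.9, 76.9 and 77.8 FPKM in spleen hM3Dq replicates 5 to 8 against 26.9, 27.3, 28.5 and 30.8 FPKM (1.38 ± 0.12, adjusted p = 0.00129). None of the 11 tested in either tissue fell by limma, with 1 lower in spleen and 0 in bone marrow at an unadjusted p below 0.05, and limma-voom called 0 lower. The median log2 change of the list was 0.15 in bone marrow and 0.09 in spleen.

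Of 10 transcription factor genes known to act on BH3-only genes, 1 was called in spleen. Foxo1 (0.08 in bone marrow and -0.01 in spleen) and Foxo3 (-0.33 and -0.08) were not called, and Jun fell in spleen (-0.60 ± 0.11, adjusted p = 0.0156, and 0.0522 without mCherry replicate 1). In bone marrow 0 of the 10 were called by either tool, with 1 higher and 1 lower at an unadjusted p below 0.05. Jun went the other way there, at 3.03 to 3.88 FPKM in hM3Dq and 2.25 to 3.00 FPKM in mCherry libraries. Such a range above the controls was found for 12.2% of all genes tested in bone marrow. Among 16 genes whose proteins bind, modify or turn over MCL1, BIM, BMF, BAD or BID, Dynll1 fell in both tissues. It encodes the dynein light chain that binds BIM. Its level went from 16.9 to 9.32 FPKM in bone marrow (log2 change -0.93 ± 0.13, adjusted p = 0.00706) and from 13.4 to 6.43 FPKM in spleen (-1.11 ± 0.18, adjusted p = 0.0115). The kinase gene Pim1 (-0.45, adjusted p = 0.0493) and the calcineurin gene Ppp3ca (-0.40, 0.0331) fell in spleen, calls that ended in 12 and 10 of 17 other fits, among them 7 of the 8 that left out 1 library for each. All 7 glucocorticoid-induced reference genes, picked from genes known to respond in these data, rose in both tissues, with medians of 2.31 and 1.80.

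**Figure D4:**
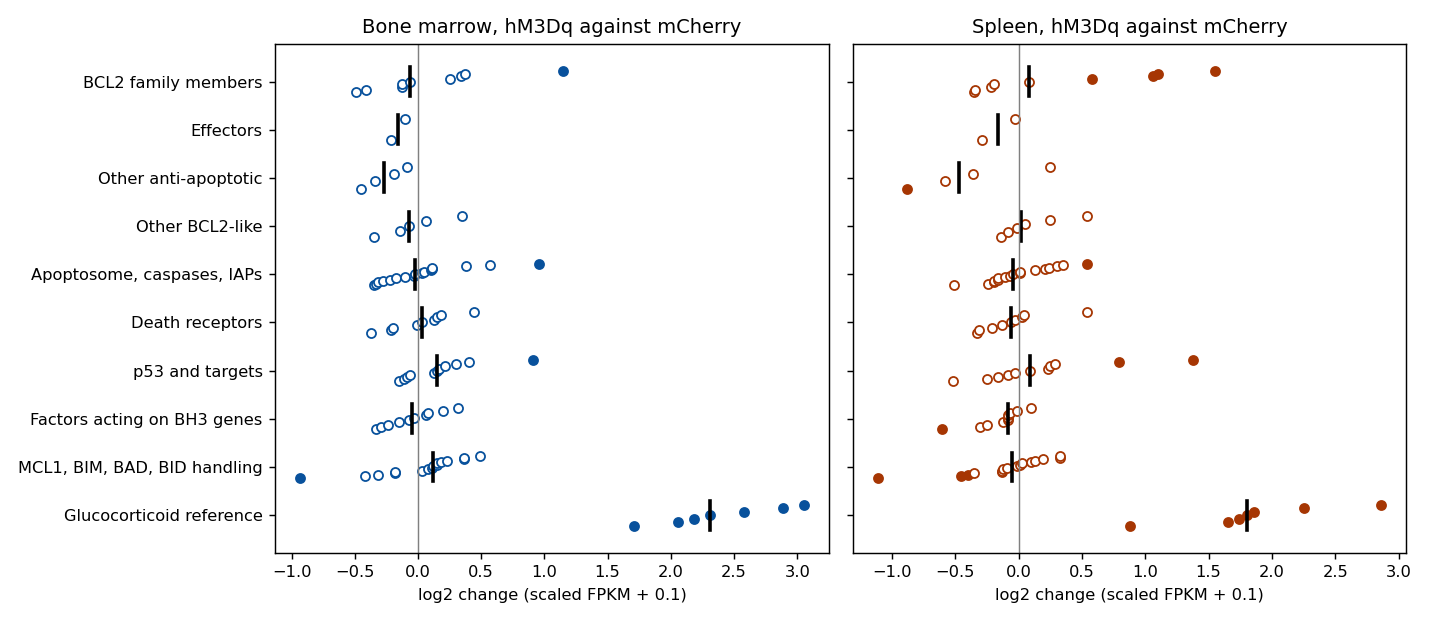
Log2 change in hM3Dq against mCherry libraries (x axis, scaled FPKM plus 0.1) of each tested gene of the BCL2 family members and 9 related lists (y axis), in bone marrow (left) and spleen (right). Filled points passed an adjusted p of 0.05 and black bars mark list medians. In spleen 4 of 9 members were filled, all to the right of 0, against 1 of 9 in bone marrow. Of all genes tested 8.05% were called in spleen and 4.73% in bone marrow. Among the members a difference between the tissues was called for Bbc3 alone.

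The genes whose pattern over the 16 libraries was most like that of Bmf, the member with the smallest p in bone marrow, were Mybpc2, Zmynd11, Usp3, Prr7 and Cry2, with Pearson's r of log2 values of 0.923 to 0.934. For Bbc3, the member with the smallest p in spleen, they were Sesn1, Neb, Hs3st1, Gm44751 and Vars, at 0.950 to 0.958. Both sets were taken from 15378 genes tested in both tissues, and the 16 libraries behind each correlation fall into 4 groups. Among the members, Bbc3 was closest to Bcl2l11 (r = 0.930) and Bcl2 (0.860), and Bid ran opposite to Bcl2 (-0.960).

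The members lie on 8 chromosomes (GRCm38). Bmf (ENSMUSG00000040093, 118528757 to 118549687), Bcl2l11 (ENSMUSG00000027381, 128126038 to 128162547) and Bcl2l1 (ENSMUSG00000007659, 152780668 to 152831728) share chromosome 2, Bbc3 (ENSMUSG00000002083) is at 16308393 to 16318205 of chromosome 7 and Bcl2 (ENSMUSG00000057329) at 106538178 to 106714274 of chromosome 1. The nearest protein-coding neighbours of Bmf, Srp14 and Bub1b, were not called in either tissue. Of those of Bbc3, Ccdc9 was higher in spleen (log2 change 0.40, adjusted p = 0.0383) and Sae1 was not called (0.12). Next to Bcl2, Kdsr was higher in both tissues (0.67, adjusted p = 0.0178, and 0.69, 0.0360), and Phlpp1 was called in neither. Beside Mcl1, itself not called, Adamtsl4 was higher in bone marrow (1.22, adjusted p = 0.00658) and Ensa lower in spleen (-0.34, 0.0278). Ttll1, next to Bik, was lower in bone marrow (-0.66, 0.0344) and spleen (-0.62, 0.0414). Bad overlaps Gpr137, Bid overlaps Bcl2l13 and Bcl2 overlaps D630008O14Rik on the opposite strand, and with no strand setting known reads of such pairs may not be told apart. No gene of the files overlaps Bbc3, Bmf, Bcl2l11, Bcl2l1 or Mcl1.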

How the data were processed

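The authors deposited 1 file per library with FPKM values for 49585 Ensembl genes, a unit given per the file headers. The submitters' processing notes list STAR 2.6.1a, edgeR 3.28.1, CASAVA 1.9, featureCounts and the build GRCm38. Neither the annotation release nor the strand setting is stated there.

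Symbols and exon lengths came from GENCODE M21 (49326 genes matched). FPKM times exon length gave whole reads, within 0.01, in every library for 27902 of 31954 genes above 0 (87.3%). For 4028 others the smallest length giving whole reads was used. Pmaip1, Bad and Bik were among these, so their reads are the fewest that the values allow. For Bik the length was 943 in place of 1591 bases, and its exclusion from the tests rests on this length. This step gave depth, reads and TMM factors (0.850 to 1.18, trims of 30% and 5%). The FPKM values printed are as deposited, and tests used log2(FPKM / TMM factor + 0.1), a scale that understates changes of low genes.

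Genes that reached 10 reads in 4 libraries or more of those compared were fitted with limma 3.58.1 (trended spread, two-sided, R 4.3.3), with Benjamini-Hochberg adjustment over all genes tested. A call is an adjusted p below 0.05, and ± beside a log2 change is limma's standard error. The procedure was tested on simulated data. Members and lists were chosen with earlier results of these data known. All members are named, with up to 3 called genes per list, direction and comparison, not all of which are described, and the genes most like a member. Chromosomal neighbours, single cell type markers and single list genes that were not called (Foxo1, Foxo3, Bcl2l2 and the Bcl2a1 copies) were picked after their values were seen.

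Same-numbered bone marrow and spleen libraries had correlations of deviations from group means of 0.002 to 0.475, so numbers were not taken as pairs. Each limma p-value sets a difference between groups against the spread between these libraries, and nothing ties a library to a single mouse. Other software was matplotlib 3.10.9, pandas 2.3.3, numpy 2.4.6 and Python 3.11.15.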

Additional observations from a re-analysis of the deposited data

Results flagged for a closer look

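The effect of the virus on Bbc3 differed between tissues by the test of the interaction, with a bone marrow change minus spleen change of -1.68 on the log2 scale (± 0.21, adjusted p = 0.00425 by limma over 17987 genes). All 4 spleen hM3Dq libraries lay above the spleen controls, and the bone marrow groups overlapped.

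Mcl1 in bone marrow hM3Dq replicate 6, at 194 FPKM, lay far from the other 3 libraries of its group (150.3 to 157 FPKM) by Dixon's criterion. Chance alone marks about 1 in 20 groups, and 40 groups of member values were examined. Replicate 6 also had the lowest haemoglobin share of that tissue, 0.391% of reads. Without it the log2 change of Mcl1 was 0.27 ± 0.09 (adjusted p = 0.150).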

How the results depend on the processing

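The calls of Bbc3, Bcl2l11 and Bcl2 in spleen, of Bmf in bone marrow and of Bbc3 in the interaction were kept in all alternatives run, which changed the pseudocount, filter, scaling, spread, tool and haemoglobin term or left out libraries. The Bmf call in spleen was lost in 7 of 17. Of the bone marrow genes, 762 were called, against 278 with no filter, 1617 in 1 fit of all 16 libraries, 302 without hM3Dq replicates 5 and 6 and 275 to 697 with 1 library left out. Members higher there were 2, not 1, by limma-voom and in the fit of 16 libraries. In spleen 1375 genes were called, against 586 with no filter, 860 with the haemoglobin term, 725 without both low-share libraries and 418 to 1752 with 1 library left out, where members lower were 0 to 1 and members higher 3 to 4. In the interaction 18 genes were called, against 81 with a pseudocount of 1, 11 with no scaling, 29 by limma-voom and 3 (without spleen hM3Dq replicate 6) to 36 (without spleen hM3Dq replicate 5). Limma-voom and the fits without both low-share libraries were chosen after seeing the data.

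Signs that turned belonged to changes that were not called. In bone marrow these were Bbc3 (0.099), Bcl2l1 (0.18) and Bax (0.045) without hM3Dq replicates 5 and 6, and Bid (0.014) with no scaling. In spleen Bcl2l1 turned with the haemoglobin term (0.068) and ranged from -0.70 to 0.079 with 1 library left out, and Bax from -0.11 to 0.026. In the interaction the same ranges were -0.14 to 0.17 for Bmf, -0.49 to 0.29 for Bcl2l1 and -0.17 to 0.029 for Bax. The cause was not tested.

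With no scaling the calls split into 489 higher against 273 lower became 640 against 158 in bone marrow, and 7 against 11 became 6 against 5 in the interaction. With the replicate number as a block across tissues, the interaction had 9 called genes and Bbc3 kept its call (adjusted p = 0.0133). Same-numbered libraries did not all deviate together (0.002 to 0.475), and 4 of 8 correlated best with their own number. Within a tissue no paired analysis was possible because no number occurs under both viruses. Genes with few recovered reads were not tested, and for Bik this rests on the length used to recover them.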
